A study of Mus musculus with 6 samples.

Results

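Aminoacyl-tRNA synthetases are the enzymes that join each amino acid to its transfer RNA (tRNA). The 36 genes described here encode 20 cytosolic and 16 mitochondrial enzymes. They were picked by name from a list drawn up with earlier results of these data known, and they were compared among the 16495 genes that could be tested. Total RNA came from 6 cultures of primary mouse keratinocytes, the cells that build the epidermis, prepared together with hair follicle buds from the skin of newborn wild-type mice. An adenovirus brought the v-ras-Ha oncogene into all 6 cultures, at 10 particles per cell for 30 min, with Polybrene to help uptake. From 5 hours after transduction, 3 cultures received Anakinra, an antagonist of the interleukin-1 (IL-1) receptor, at 5 ug/ml, which was replaced after 2 days, and 3 control cultures received PBS. The cells were harvested 3 days later, and their RNA was measured on 1 Agilent one-colour array per culture. The comparison asks which transcripts of ras-expressing keratinocytes depend on IL-1 receptor signalling. Whether the cultures came from separate animals is not stated, and every culture carried the oncogene, so cells without it are not part of the comparison.

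Each synthetase recognises 1 amino acid and the tRNAs that carry it, and the charged tRNA then brings that amino acid to the ribosome. Most amino acids have a cytosolic enzyme and a separate mitochondrial one, both encoded in the nucleus, and the second is imported to serve the small set of proteins made inside mitochondria. The genes Gars and Kars make both forms from 1 gene and are counted here as cytosolic. Several cytosolic enzymes sit together in the multi-synthetase complex, held by scaffold proteins. By the fold of the catalytic domain the enzymes fall into classes I and II. When amino acids run short, the transcription factor ATF4 raises amino acid transporters, amino acid synthesis enzymes and many of the cytosolic synthetases, through sites known as amino acid response elements.

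The start regions of the synthetase genes are shown first because that response element is the known link between the cytosolic enzymes and amino acid supply. RefSeq windows of GRCm38.p6, running from 250 bases before to 50 bases after a gene's start, were available for 27 of the 36 genes. They were searched on both strands for TGATGNAA, the core of the element, where N is any base. Among the 13 cytosolic genes with a window, 5 held a match (38.5%), and among the 14 mitochondrial genes 0 did. Of all 32851 windows 3.97% held one, or 4.51% of 27025 genes counted once each. Capitals mark the matches, and each window is printed 5′ to 3′ on the strand of its gene. They belong to the alanyl enzyme gene Aars (chr8:111033592-111033891, plus strand), the glycyl enzyme gene Gars (chr6:55037751-55038050, plus strand), the isoleucyl enzyme gene Iars (chr13:49681880-49682179, plus strand), the threonyl enzyme gene Tars (chr15:11399609-11399908, minus strand) and the tyrosyl enzyme gene Yars (chr4:129189653-129189952, plus strand).
Aars: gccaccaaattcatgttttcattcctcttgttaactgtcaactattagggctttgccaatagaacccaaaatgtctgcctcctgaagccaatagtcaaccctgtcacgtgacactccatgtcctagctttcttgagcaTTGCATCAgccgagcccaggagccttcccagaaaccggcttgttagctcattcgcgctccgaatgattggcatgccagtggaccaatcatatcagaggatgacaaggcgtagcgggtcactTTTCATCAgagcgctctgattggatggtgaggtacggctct
Gars: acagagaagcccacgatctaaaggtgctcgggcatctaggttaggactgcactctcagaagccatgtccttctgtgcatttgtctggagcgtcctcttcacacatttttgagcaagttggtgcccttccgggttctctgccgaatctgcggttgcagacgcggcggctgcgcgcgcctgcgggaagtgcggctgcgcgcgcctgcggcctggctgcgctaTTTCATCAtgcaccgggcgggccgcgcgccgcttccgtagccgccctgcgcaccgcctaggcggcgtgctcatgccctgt
Iars: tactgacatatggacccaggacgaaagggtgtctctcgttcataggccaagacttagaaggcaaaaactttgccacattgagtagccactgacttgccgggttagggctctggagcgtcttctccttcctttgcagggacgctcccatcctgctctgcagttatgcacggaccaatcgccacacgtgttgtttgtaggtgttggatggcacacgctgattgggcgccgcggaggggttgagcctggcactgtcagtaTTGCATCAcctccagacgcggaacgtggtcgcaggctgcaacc
Tars: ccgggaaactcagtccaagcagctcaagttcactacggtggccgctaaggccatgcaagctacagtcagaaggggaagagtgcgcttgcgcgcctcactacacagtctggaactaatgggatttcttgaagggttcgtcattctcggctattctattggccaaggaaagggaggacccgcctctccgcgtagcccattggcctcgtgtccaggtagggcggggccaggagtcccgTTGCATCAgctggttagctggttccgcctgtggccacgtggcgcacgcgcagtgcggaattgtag
Yars: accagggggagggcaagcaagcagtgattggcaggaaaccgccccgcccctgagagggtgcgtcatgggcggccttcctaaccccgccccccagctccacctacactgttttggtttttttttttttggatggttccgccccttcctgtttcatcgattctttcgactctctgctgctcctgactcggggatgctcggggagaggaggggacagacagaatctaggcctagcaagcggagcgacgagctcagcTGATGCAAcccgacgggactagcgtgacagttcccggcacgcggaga

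Aars held 2 matches, the first beginning at position -112 and the last at position 9, where position 0 is the base after the 250 upstream bases. In Gars the match began at -30, in Tars at -15, in Yars at 3 and in Iars at 7. Only the match in Yars reads on the strand of its gene, while the others are on the opposite strand. A match is a description of these letters and does not show that a factor binds there. No window was given for Nars, Hars, Hars2, Lars, Vars, Pars2, Cars, Rars or Wars.

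No synthetase gene passed the test between Anakinra and PBS, but most lay slightly lower in Anakinra. The limma fit called 0 of 36 at an adjusted p under 0.05, where 1.77% of all genes tested were called (0.97% higher and 0.8% lower in Anakinra). The lowest adjusted p among the 36 was 0.114. At an unadjusted p under 0.05, 9 of the 36 were lower and 0 higher in Anakinra, against 7.61% lower and 8.48% higher over all genes tested. The change was below 0 in 31 of the 36 (86.1%), against 47.7% of all genes tested. The 3 Anakinra values lay below the 3 PBS values in 16 of the 36 and above them in 0, against 13.8% and 12.5% of all genes tested. These genes were read on the same 6 arrays and may vary together, which was not measured. The counts therefore describe these samples and carry no p.

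The differences were small. All values are log2 processed signal relative to the 75th percentile of the same array, and every change is Anakinra minus PBS with its standard error (SE, 3 cultures per group). The median change was -0.12 over the cytosolic genes and -0.09 over the mitochondrial genes, against 0.01 over all genes tested. The largest size was 1.34-fold, for Lars2. The 95% confidence interval lay within 2-fold of no change for all 36 genes and within 1.5-fold for 34, the exceptions being Lars2 and Hars2. Over all genes tested, intervals lay within 2-fold in 76.9% and within 1.5-fold in 58.8%. All 36 genes were well above background on all 6 arrays, as were 85.6% of the genes tested, so each was measured in both groups. With the array median in place of the 75th percentile as the scale, all 36 changes were below 0, against 86.5% of all genes tested. The median of all genes moved to -0.32, and relative to that shift the cytosolic median was -0.13. With the authors' deposited value table, 25 of the 36 were below 0, against 37.7% of all genes tested. The median of all genes was 0.07 with that table, and relative to it the cytosolic median was -0.13.

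**Figure D1:**
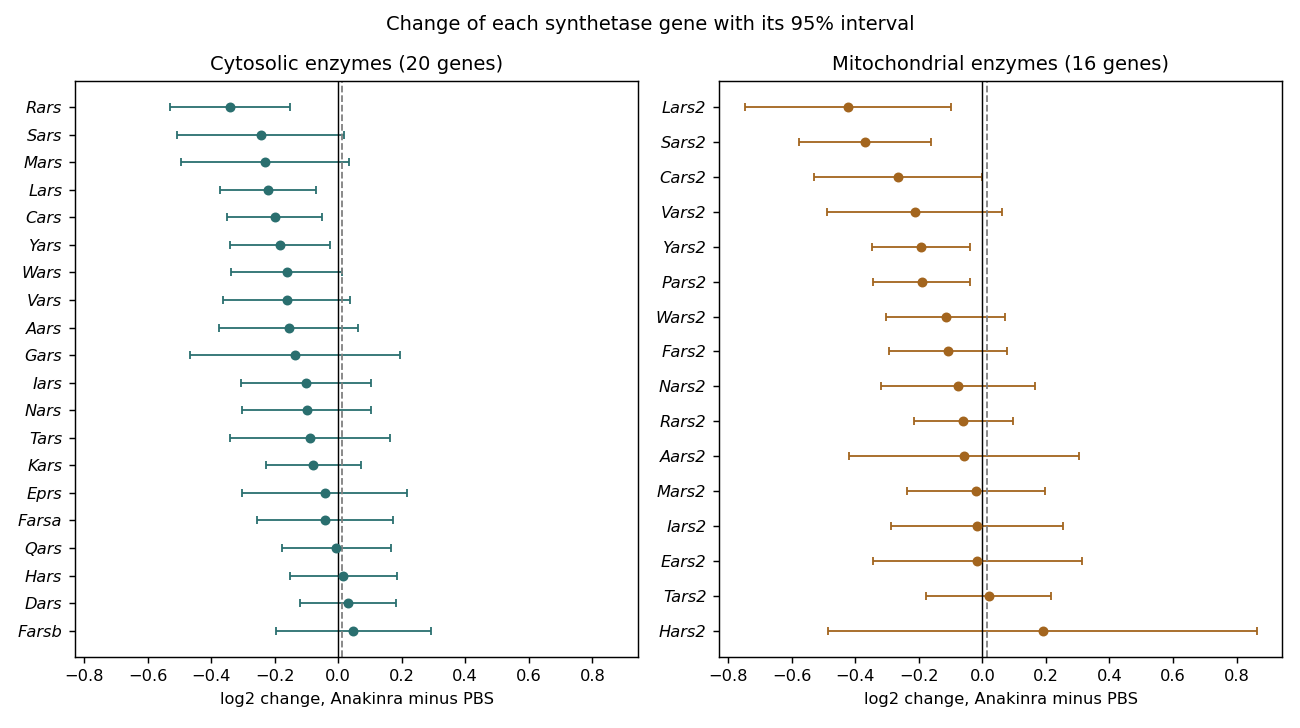
Log2 change (Anakinra minus PBS, x axis) of the 20 cytosolic and 16 mitochondrial synthetase genes, as a point with its 95% confidence interval from limma, and with a dashed line at the median of all genes tested (0.01). Points lie left of 0 for 17 cytosolic and 14 mitochondrial genes, and most intervals cross 0.

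Among the cytosolic enzymes, the arginyl enzyme gene Rars differed most. Its log2 signal was 2.16, 2.28 and 2.08 in Anakinra cultures 1, 2 and 3, against 2.55, 2.52 and 2.47 in PBS cultures 1, 2 and 3. The groups did not overlap, with a change of -0.34 ± 0.08 (limma adjusted p = 0.114), or 1.27-fold lower in Anakinra. Its probe lies on chromosome 11 of mm8, where the array design places it between 35663350 and 35664526 on the minus strand, a span longer than the probe. The seryl enzyme gene Sars read 5.17, 5.32 and 5.17 in Anakinra against 5.64, 5.42 and 5.34 in PBS, a change of -0.24 ± 0.10 (limma adjusted p = 0.344). The gap between Anakinra 2 and PBS 3 was narrow in Sars, and PBS 1 stood above the other PBS cultures. Without PBS 1 the change in Sars was -0.16.

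Lars, for the leucyl enzyme, varied little within either group. It read 4.29, 4.29 and 4.38 in Anakinra against 4.56, 4.53 and 4.53 in PBS, a change of -0.22 ± 0.06 (limma adjusted p = 0.169). Cars, which encodes the cysteinyl enzyme, read 4.39, 4.34 and 4.37 in Anakinra against 4.60, 4.58 and 4.52 in PBS (change -0.20 ± 0.06, limma adjusted p = 0.202). In both genes every Anakinra culture lay below every PBS culture by more than the spread within either group. Yars, with the response element match at its start, read 3.29, 3.18 and 3.19 in Anakinra against 3.41, 3.42 and 3.38 in PBS (change -0.18 ± 0.06, limma adjusted p = 0.251). The 3 PBS cultures were close together in Yars, and Anakinra 1 came nearest to them.

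Mars, Wars, Aars and Kars were the other cytosolic genes whose groups did not overlap. Mars, for the methionyl enzyme that also charges the initiator tRNA, read 2.64, 2.54 and 2.30 in Anakinra against 2.73, 2.68 and 2.76 in PBS (-0.23 ± 0.10). Anakinra 3 lay lowest, and without it the change in Mars was -0.13. The tryptophanyl enzyme gene Wars read 1.78, 1.72 and 1.70 in Anakinra against 1.99, 1.86 and 1.85 in PBS (-0.16 ± 0.07). Aars read 3.94, 4.04 and 3.99 in Anakinra against 4.29, 4.11 and 4.04 in PBS (-0.16 ± 0.09), so that Anakinra 2 and PBS 3 nearly met, and without PBS 1 its change was -0.09. The lysyl enzyme gene Kars read 3.05, 2.98 and 3.04 in Anakinra against 3.14, 3.08 and 3.09 in PBS, a difference of only -0.08 ± 0.06.

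The groups overlapped in the remaining 11 cytosolic genes. The valyl enzyme gene Vars was at -0.16 ± 0.08, Gars at -0.14 ± 0.13, Iars at -0.10 ± 0.08, the asparaginyl enzyme gene Nars at -0.10 ± 0.08 and Tars at -0.09 ± 0.10. Without PBS 1 Gars was at -0.04 and Tars at -0.0096, and without Anakinra 2 Nars was at -0.04 and Iars at -0.06. Nearer to 0 were Eprs, a fused enzyme for glutamate and proline, at -0.04 ± 0.10, the phenylalanyl subunit gene Farsa at -0.04 ± 0.08 and the glutaminyl enzyme gene Qars at -0.01 ± 0.07. The histidyl enzyme gene Hars at 0.02 ± 0.07, the aspartyl enzyme gene Dars at 0.03 ± 0.06 and Farsb, for the other phenylalanyl subunit, at 0.05 ± 0.10 were the 3 cytosolic genes above 0. Farsa and Farsb, whose products form 1 enzyme, thus had opposite signs, each smaller than its SE.

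**Figure D2:**
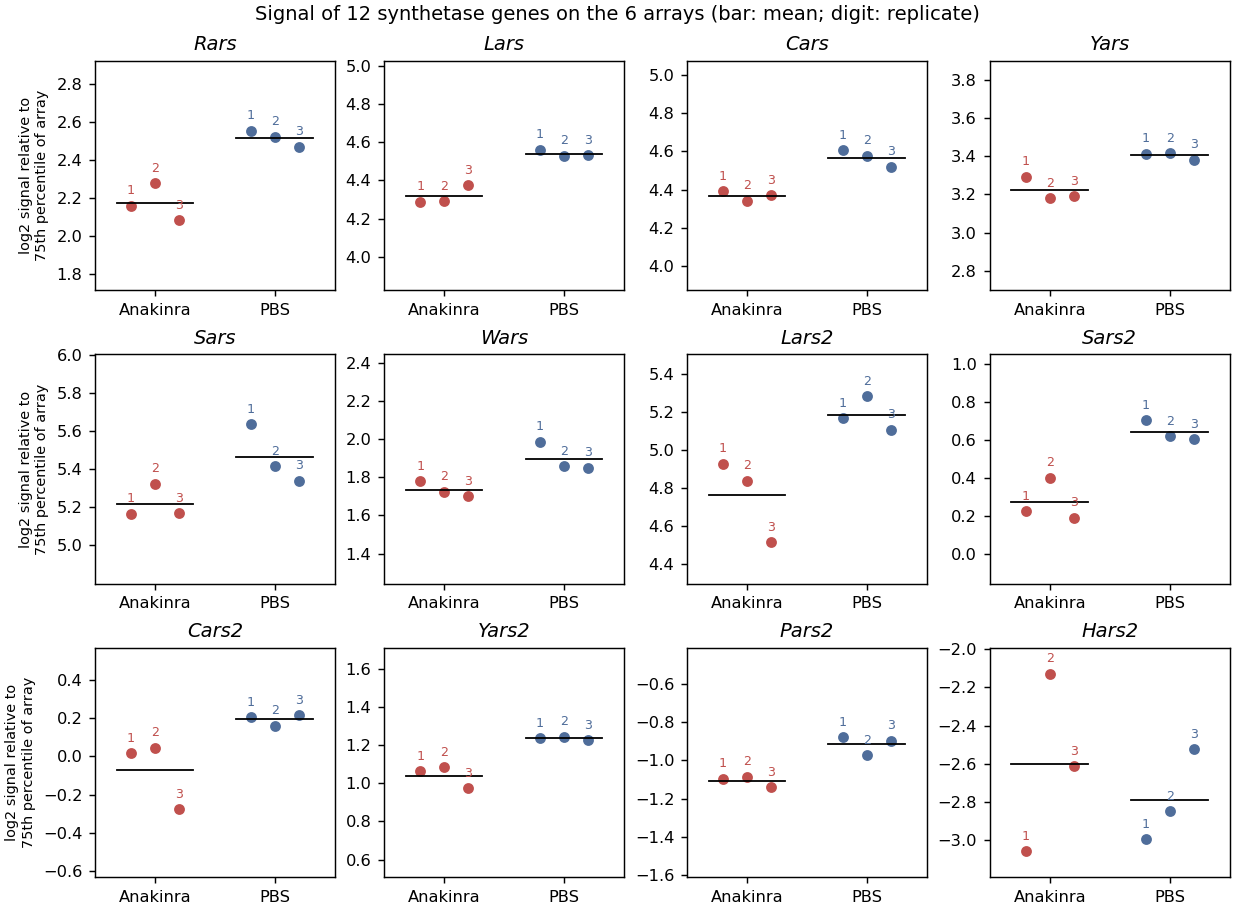
Log2 signal relative to the 75th percentile of the array (y axis, each panel spanning the same range) for 12 synthetase genes in Anakinra and PBS cultures, with digits for the replicate and a bar at the mean of 3. The groups do not overlap in 11 of the panels, and in Hars2 they do, with Anakinra 2 highest and Anakinra 1 lowest.

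In the mitochondrial group, the leucyl enzyme gene Lars2 had the largest change and by far the brightest signal. The next brightest, Tars2, had means of 1.89 in Anakinra and 1.87 in PBS. Lars2 read 4.93, 4.84 and 4.52 in Anakinra against 5.17, 5.28 and 5.11 in PBS, a change of -0.42 ± 0.13 (limma adjusted p = 0.208, 95% interval -0.75 to -0.10). Anakinra 3 lay lowest. The array design places the Lars2 probe on chromosome 9 of mm8, from 123310696 to 123310755 on the plus strand. Sars2, for the mitochondrial seryl enzyme, read 0.23, 0.40 and 0.19 in Anakinra against 0.70, 0.62 and 0.60 in PBS, a change of -0.37 ± 0.08 (limma adjusted p = 0.117). Its probe lies on chromosome 7 of mm8, from 28462362 to 28462421 on the plus strand. The gap between the groups in Sars2 was about as wide as the whole spread of the Anakinra cultures, and wider than that of the PBS cultures.

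Yars2 and Pars2, for the mitochondrial tyrosyl and prolyl enzymes, also varied little within the groups. Yars2 read 1.06, 1.09 and 0.98 in Anakinra against 1.24, 1.24 and 1.22 in PBS (-0.19 ± 0.06, limma adjusted p = 0.222). Pars2 read -1.10, -1.09 and -1.14 in Anakinra against -0.88, -0.97 and -0.90 in PBS (-0.19 ± 0.06, limma adjusted p = 0.227). In both, the gap between the groups exceeded the spread within each group. The cysteinyl enzyme gene Cars2 read 0.02, 0.05 and -0.28 in Anakinra against 0.21, 0.16 and 0.21 in PBS (-0.27 ± 0.11, limma adjusted p = 0.311), with Anakinra 3 apart from the other Anakinra cultures. Without Anakinra 3 the change in Cars2 was -0.16.

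The groups also did not overlap in Wars2 and Fars2, for the mitochondrial tryptophanyl and phenylalanyl enzymes. Wars2 read -2.20, -2.19 and -2.37 in Anakinra against -2.12, -2.16 and -2.13 in PBS (-0.12 ± 0.07). Fars2 read 0.23, 0.26 and 0.08 in Anakinra against 0.29, 0.33 and 0.27 in PBS (-0.11 ± 0.07). In both, Anakinra 3 was the lowest array and the gap between the groups was under 0.05. Without Anakinra 3 Wars2 was at -0.06 and Fars2 at -0.05. The overlapping mitochondrial genes ran from Vars2 at -0.21 ± 0.11 through Nars2 at -0.08 ± 0.10, Rars2 at -0.06 ± 0.06 and Aars2 at -0.06 ± 0.14 to Mars2, Iars2 and Ears2, each at -0.02. The other probe of Vars2, dimmer but also well above background on all arrays, was at 0.02 ± 0.12. Tars2 was at 0.02 ± 0.08.

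Hars2, for the mitochondrial histidyl enzyme, had the highest change of the 36 and the widest error. It read -3.06, -2.13 and -2.61 in Anakinra against -2.99, -2.85 and -2.52 in PBS, a change of 0.19 ± 0.27 (limma adjusted p = 0.803, 95% interval -0.49 to 0.86). Anakinra 2 was its highest array and Anakinra 1 its lowest, so no direction could be read. On the array its probe carries the older name Harsl, while a probe with the file name Hars2 belongs by its accession to Dtd1, which encodes a proofreading enzyme for tRNA. Likewise the probes named Vars2 in the files belong to the cytosolic Vars, and those named Vars2l to Vars2. In all, 27 of the 36 genes were found under their own name and 9 under an older one.

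**Figure D3:**
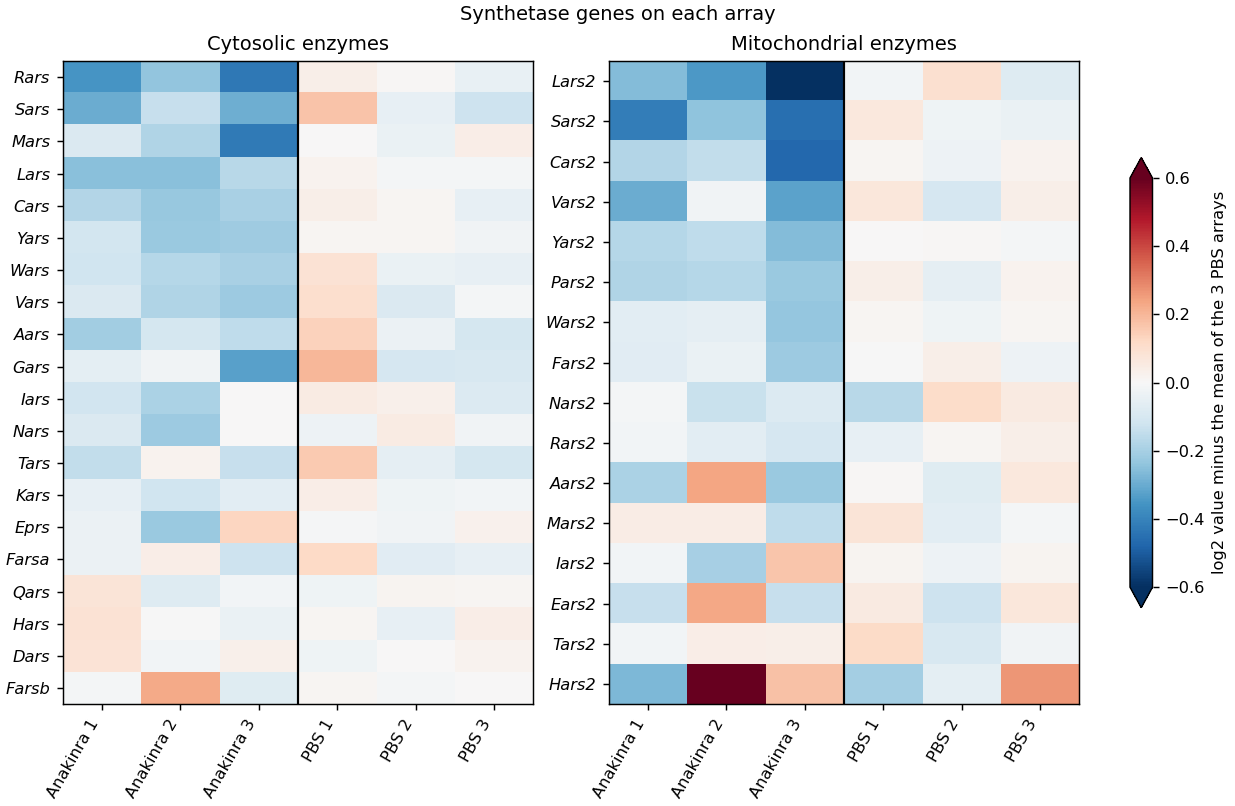
Each synthetase gene (rows) on each of the 6 arrays (columns, Anakinra cultures left of PBS cultures), as the log2 value minus the mean of the 3 PBS arrays, in blue where lower and red where higher. The Anakinra columns are mostly blue in the upper rows, the Anakinra 3 column is darkest in Lars2, Cars2, Sars2, Rars and Mars, and PBS 1 is the reddest of the PBS columns in Sars, Aars, Gars and Tars.

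The mean change was -0.12 in the cytosolic and in the mitochondrial genes. The difference between these means was of opposite sign on the 2 slides, at 0.07 within slide 1 and -0.07 within slide 2. In the fit over all 6 arrays the share of genes below 0 was 85.0% of the cytosolic and 87.5% of the mitochondrial genes. Between the enzymes for the same amino acid the changes lay close for tyrosine (Yars -0.18, Yars2 -0.19) and cysteine (Cars -0.20, Cars2 -0.27). They lay further apart for serine (Sars -0.24, Sars2 -0.37), arginine (Rars -0.34, Rars2 -0.06) and methionine (Mars -0.23, Mars2 -0.02). These pairs were picked after their values were seen, and the differences between them were not tested.

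By catalytic fold, all 19 class I genes had a change below 0, with a median of -0.16, and 12 of 17 class II genes did, with a median of -0.08. Both compartments showed this, at 10 of 10 class I and 7 of 10 class II genes in the cytosol and 9 of 9 and 5 of 7 in mitochondria. The 5 genes above 0 were thus all of class II (Hars, Dars, Farsb, Tars2 and Hars2). With the authors' deposited value table, 14 of 19 class I and 11 of 17 class II genes were below 0, against 37.7% of all genes tested. Without Anakinra 2 the counts were 16 of 19 class I and 14 of 17 class II genes, against 59.1% of all genes tested. Without Anakinra 3 they were 16 of 19 and 10 of 17, against 42.7%. With the mean of all passing probes they were 17 of 19 and 12 of 17, against 46.7%. Eprs joins a class I glutamyl and a class II prolyl enzyme and was counted in class I. The split by class carries no test.

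The 8 enzymes of the multi-synthetase complex had a median of -0.09, with 7 below 0, and the 12 free cytosolic enzymes a median of -0.15, with 10 below 0. None of the 3 scaffold genes passed the test. Aimp2 was at -0.34 ± 0.12 (limma adjusted p = 0.251), with groups that did not overlap, Aimp1 at -0.18 ± 0.09 and Eef1e1 at -0.07 ± 0.07. Within the complex Rars, Mars, Lars and Kars had groups that did not overlap, while Dars and Qars lay at 0.03 and -0.01.

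The 5 genes with a response element match at their start all had a change below 0, from -0.18 in Yars to -0.09 in Tars, with a median of -0.14. The 8 cytosolic genes with a window and no match ran from -0.24 to 0.05 with a median of -0.04. Rars, Lars and Cars had no window and are in neither count. The ranges overlap, and the number of genes is small. PBS 1 was the highest PBS array in 4 of the 5, and without it their median was -0.08, with Tars at -0.0096 and Gars at -0.04, against -0.03 for the 8 without a match.

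Some genes of the amino acid response driven by ATF4 fell in Anakinra. The test called 4 of 29 genes of the ATF4 and amino acid response, all lower in Anakinra (0.8% of all genes tested were), and 25 did not pass. The list had 27 changes below 0 and a median of -0.34, and the kinase genes Eif2ak3 at 0.30 ± 0.08 and Eif2ak4 at 0.19 ± 0.11, named after their values were seen, lay above 0. The arginine and lysine transporter gene Slc7a3 read 1.16, 1.55 and 1.32 in Anakinra against 2.38, 2.39 and 2.21 in PBS and fell by 0.99 on the log2 scale (limma adjusted p = 0.0302). The proline synthesis gene Pycr1 was at -0.67 ± 0.09 (limma adjusted p = 0.0406), the mitochondrial serine hydroxymethyltransferase gene Shmt2 at -0.57 ± 0.09 (limma adjusted p = 0.049) and the neutral amino acid transporter gene Slc1a5 at -0.54 ± 0.08 (limma adjusted p = 0.049). Atf4 itself, named after its value was seen, was at -0.22 ± 0.10 (limma adjusted p = 0.384). With the slide as a block, and without Anakinra 1, PBS 1, PBS 2 or PBS 3, 0 of the 29 were called, and without Anakinra 2 or Anakinra 3, 1 was called, while the list median stayed between -0.38 and -0.30. Median scaling and the test without a filter also called 0.

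Wars was also set beside an interferon gamma list, since its human counterpart is a target of that cytokine. The test called 5 of its 12 genes, all lower in Anakinra (0.8% of all genes tested were), and the list median was -0.91, beside a change of -0.16 ± 0.07 in Wars. The largest of these falls was Cxcl10, a T cell chemokine, at -1.57 ± 0.09 (limma adjusted p = 0.0038), and the others were Psmb8 at -1.28, Oasl2 at -1.33, Irf1 at -0.99 and Bst2 at -0.73. With the slide as a block, with median scaling, without a filter or without PBS 1, 1 of the 12 was called. Without PBS 2 it was 0, without Anakinra 1 or PBS 3 it was 2, and without Anakinra 3 it was 3. With the replicate number as a block it was 0, and with quantile scaling 4. With the authors' table, array weights, the mean of all probes or without Anakinra 2, 5 were called. Normexp background correction called 7, as did the filter for probes above background on all arrays.

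The partner machinery of translation lay nearer to 0. Of 13 genes for cytosolic elongation and tRNA delivery 0 passed, with a median of -0.02 and 8 below 0. The tRNA export factor gene Xpot was at -0.24 ± 0.08 and the elongation factor gene Eef2 at -0.23 ± 0.11. Of 17 genes for mitochondrial translation, among them Gatb, Gatc and Qrsl1, whose products make glutaminyl-tRNA there in place of a separate synthetase, 0 passed, with a median of -0.03 and 10 below 0. The elongation factor genes Tsfm at -0.30 ± 0.09 and Gfm1 at -0.20 ± 0.07 had the smallest p among them. At an unadjusted p under 0.05, 1 of the 13 and 2 of the 17 were lower in Anakinra, near the 7.61% of all genes tested.

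**Figure D4:**
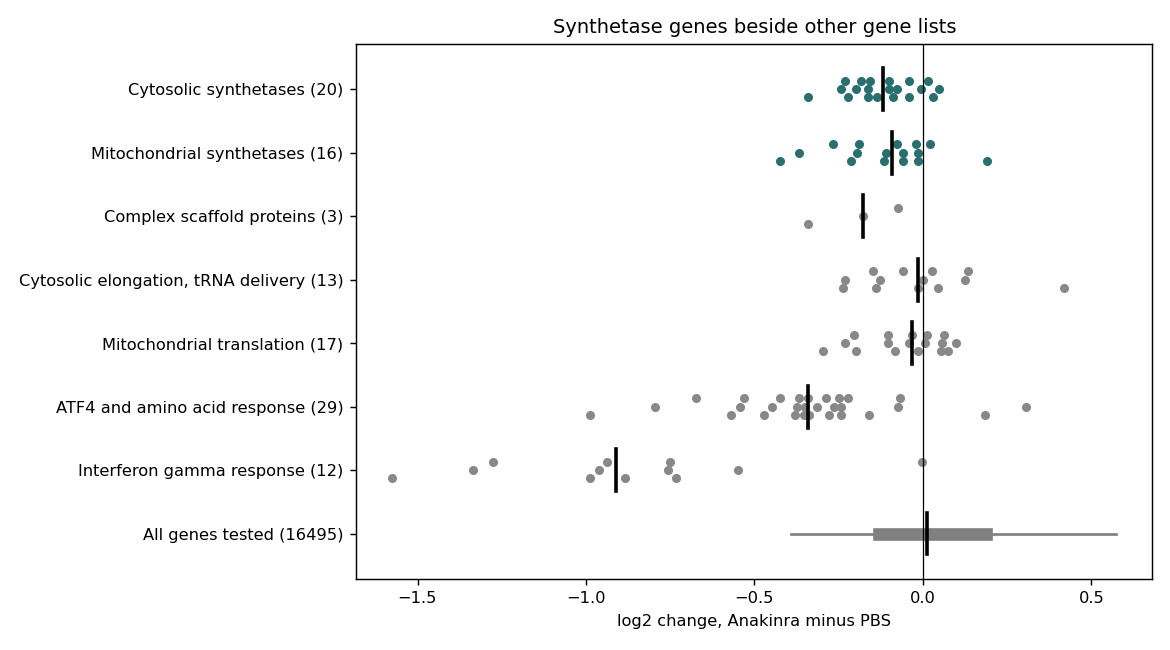
Log2 change (Anakinra minus PBS, x axis) of each gene in the synthetase groups and in 5 further lists, with a black bar at each median and, for all genes tested, a thick line from the 25th to the 75th percentile and a thin line from the 5th to the 95th. The synthetase medians of -0.12 and -0.09 lie between that of all genes (0.01) and that of the ATF4 list (-0.34), and the interferon list lies lowest at -0.91.

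More than 1 probe could be read for several synthetases, while Rars, Lars2 and Sars2 had only 1 probe each. Of 71 probes for the 36 genes, 63 passed the filter, and 0 of these were called when all 25013 passing probes were tested singly. Among the 56 probes well above background on all arrays, 49 were below 0 (87.5%), with a median of -0.13, against 47.0% of all 21448 such probes. In 16 genes with several such probes, all probes were below 0 in 12, and signs were mixed in the other 4. The probe standing for its gene, the brightest, had the smallest change of the gene's probes in 11 of the 16. For Eprs, 4 probes ran from -0.50 to -0.04, and for Lars 3 ran from -0.45 to -0.14. Of the 7 passing probes that were dim on some array, 5 were above 0, and the widest spread within a gene, 0.78 in Dars, came from such a probe.

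The arrays lay on 2 slides, with Anakinra 1, PBS 2 and PBS 3 on slide 1 and Anakinra 2, Anakinra 3 and PBS 1 on slide 2. The cytosolic median was -0.07 within slide 1 and -0.22 within slide 2, and the mitochondrial median was -0.14 and -0.13. Over all genes tested the median was -0.04 within slide 1, with 57.5% below 0, and 0.05 within slide 2, with 44% below 0. Of the 36 genes, 26 were lower in Anakinra on both slides (72.2%), 1 was higher on both and 9 went opposite ways, against 31.4% lower on both over all genes tested. Rars differed by -0.33 on slide 1 and -0.37 on slide 2, Sars2 by -0.39 and -0.41, Lars by -0.24 and -0.23, and Lars2 by -0.27 and -0.49. Gars differed by 0.04 on slide 1 and -0.37 on slide 2, and Vars by -0.04 and -0.30. Slide 2 had a single PBS array, PBS 1, which was the highest PBS array in 13 of the 20 cytosolic genes (65.0%), 6 of the 16 mitochondrial genes and 34.8% of the 16405 genes with a value on all 6 arrays. Without PBS 1 the cytosolic median was -0.08 and the mitochondrial -0.11, against 0.00095 over all genes tested. Of the 36 changes 28 were then below 0, against 49.8% of all genes tested.

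**Figure D5:**
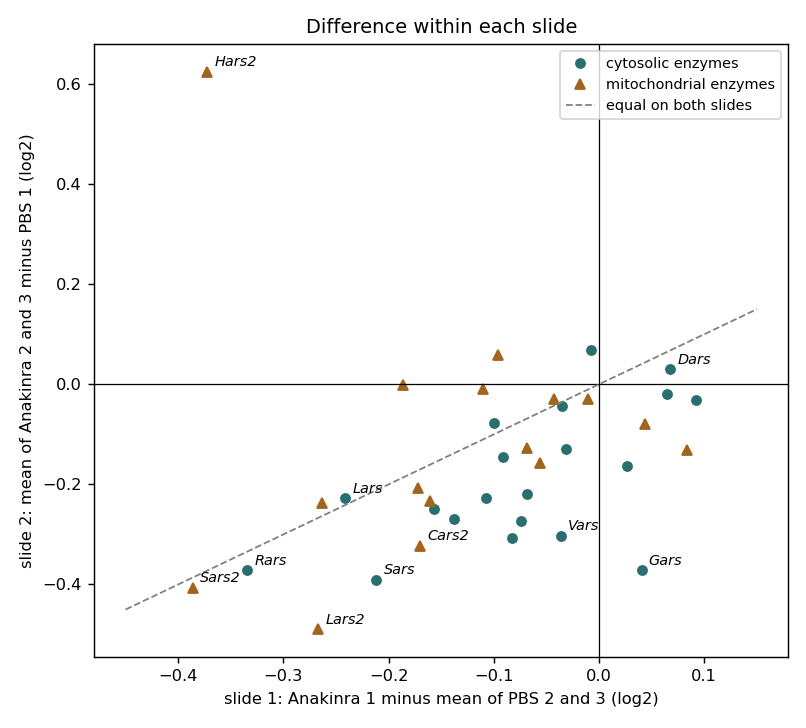
Difference within slide 1 (Anakinra 1 minus the mean of PBS 2 and 3, x axis) and within slide 2 (mean of Anakinra 2 and 3 minus PBS 1, y axis) for each synthetase gene, in log2 units, with a dashed line where both are equal. Of the 36 genes 26 lie in the lower left field, Rars, Sars2 and Lars lie close to the dashed line, and Hars2 is at -0.37 on slide 1 and 0.62 on slide 2.

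The share of spots above background overlapped between the groups, and the marker sums of other cell types differed between them in some lists only. Spots well above background made up 56.1%, 86.5% and 55.6% of Anakinra arrays 1, 2 and 3, against 66.9%, 62.5% and 71.0% of PBS arrays 1, 2 and 3. Anakinra 2 was the highest Anakinra array in 11 of the 16 mitochondrial genes (68.8%) and in 51.2% of the 16405 genes. Without it the mitochondrial median was -0.15, against -0.06 over all genes tested. Anakinra 3 was the lowest Anakinra array in 12 of the 16 (75%) and in 43.7% of those genes. Without it the mitochondrial median was -0.07, against 0.04 over all genes tested. Relative to all genes, the mitochondrial median was -0.08 without Anakinra 2, -0.10 without Anakinra 3 and -0.11 with all 6 arrays. Among the 10 keratinocyte markers Krt1 and Krt10, keratins of differentiating cells, rose, and the basal keratins Krt5 and Krt14 were at -0.14 ± 0.08 and -0.04 ± 0.08. Of 10 fibroblast markers 8 lay above 0. In 6 of the 10 the groups did not overlap and Anakinra was higher, against 12.5% of all genes tested. The test called 2 of the 10 higher, Lum and Col3a1. Twist2 at -0.79 ± 0.14 and Dcn at -0.38 ± 0.07 were lower in Anakinra, with groups that did not overlap, and did not pass (limma adjusted p = 0.0712 and 0.0703). With the filter for probes above background on all arrays 3 of the 10 were called higher and 2 lower, and with normexp 2 and 1. The list's summed level, as a multiple of the 75th percentile, was 15.8 to 18.8 in Anakinra against 12.4 to 15.1 in PBS. With the slide as a block, 0 genes of the keratinocyte and fibroblast lists were called. The 9 melanocyte markers summed to 105.8 to 114.5 in Anakinra against 91.5 to 110.0 in PBS, with 0 called. All 9 lay above 0, and in 5 the groups did not overlap and Anakinra was higher. The 6 immune markers tested, of 8 listed, summed to 2.13 to 3.08 in Anakinra against 2.71 to 3.03 in PBS, and the 3 endothelial markers tested, of 5 listed, to 1.61 to 1.91 against 2.00 to 2.12. Most of the endothelial sum came from Egfl7, at -0.26 ± 0.08. Pecam1 was at 0.12 ± 0.23, and Kdr, at -0.45 ± 0.15, was well above background on only 1 Anakinra array. Ptprc, Cd3e, Cdh5 and Tek, which define immune and endothelial cells, did not pass the filter. Less RNA per cell and fewer cells of a type cannot be told apart in such cultures, and the part of these markers in the synthetase values was not tested.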

How the data were processed

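Total RNA from 6 cultures was measured on 6 one-colour Agilent arrays, 3 per group, with groups from the treatment labels. Per the file headers, Agilent Feature Extraction 9.5.3.1 gave a processed intensity per spot, background-subtracted within each array. The authors' deposited value table is in log2 units and equals the log2 processed intensity plus 1 constant per array, between -0.11 and 0.14. The columns had medians of 5.65, 6.96 and 6.14 in Anakinra and 5.70, 5.75 and 6.15 in PBS, and no source used here gives a reason for the constants.

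Control and outlier spots were left out. The log2 processed intensity minus each array's 75th percentile was averaged per probe. A probe entered the test when every array of 1 group or both flagged it as well above background and each group had 2 or more values, and the brightest passing probe stood for its gene. Names were updated through RefSeq GRCm38.p6: of 41174 probes, 23374 matched by accession, 6733 by symbol and 2919 by synonym, and 8148 kept the file's name. Probe positions are on mm8. Anakinra was compared with PBS in limma 3.58.1 (R 4.3.3, lmFit and eBayes, two-sided, Benjamini-Hochberg over 16495 genes), a fit checked on simulated data. The spread behind each p-value is that between these cultures, which may be technical, and 3 arrays per group limit the precision. Members and lists were chosen with earlier results of these data known. Named genes were those past the threshold, those without overlap, those with the largest changes and, from each list, up to 6 called genes or the 2 with the smallest p. The other members were added so that every gene is accounted for. Eef1e1, Krt5, Krt14, Twist2, Dcn, Eif2ak3, Eif2ak4, Atf4 and Pecam1 were added after their values were seen. Alternatives covered background correction, scaling, filters, probes, slides, array weights and each array left out. Promoter windows are RefSeq's. Deviations of same-numbered samples correlated at 0.41, -0.49 and -0.21 for numbers 1, 2 and 3. The labels state no pairing, and same-numbered samples always lay on different slides. These values therefore cannot decide whether the numbers pair the cultures.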

Additional observations from a re-analysis of the deposited data

How the results depend on the processing

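The count of called synthetase genes was 0 under all 19 alternatives, with the lowest adjusted p between 0.0614 (array weights) and 0.999 (within slide 2). With the replicate number as a block, 0 of the 36 and 0 genes in all were called (lowest adjusted p among the 36 of 0.388), and 0 of 3 Anakinra and 1 of 3 PBS samples correlated best with their own number. The cytosolic median was -0.45 with median scaling, -0.062 with quantile scaling, -0.062 with the authors' table, -0.16 with the mean of all probes, -0.071 within slide 1 and -0.22 within slide 2, and ran from -0.156 (without PBS 3) to -0.081 (without PBS 1) with 1 array left out. The mitochondrial median was -0.42 with median scaling and -0.036 with the authors' table, and ran from -0.145 (without Anakinra 2) to -0.066 (without Anakinra 3). Over all genes tested in each of these fits, the median was -0.32 with median scaling, -0.016 with quantile scaling and 0.07 with the authors' table. With 1 array left out the all-gene median ran from -0.064 (without Anakinra 2) to 0.051 (without Anakinra 1). The all-gene median was -0.036 within slide 1 and 0.089 within slide 2, where each slide was filtered on its own arrays. The cytosolic minus mitochondrial mean change, 5.8e-05, was 0.068 within slide 1 and -0.075 within slide 2. Leaving out 1 array moved the change of 24 of the 36 genes by over 1.5 times, 6 of the 16 whose groups did not overlap and 18 of the other 20. The count of all genes called, 160 higher and 132 lower, was 8 and 49 with median scaling, 7 and 29 with no filter, 338 and 240 with only probes above background on all arrays, 18 and 35 with the slide as a block and 0 within either slide. Using the file's own gene names, an alternative chosen after seeing the data, tested 29 members, with 26 below 0, against 47.7% of all genes tested. Of 677 member values under alternatives, 58, from 15 members, changed sign, none from a member whose main value was over 0.19 in size; the cause was not tested.

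The sign changed with array weights in Qars (0.030), Hars2 (-0.062) and Mars2 (0.034), and with the authors' table in Eprs (0.014), Farsa (0.016), Qars (0.052), Ears2 (0.041), Iars2 (0.041) and Mars2 (0.037). With the mean of all probes it changed in Farsa (0.0056), Qars (0.184), Iars2 (0.217) and Tars2 (-0.020). Median scaling turned Dars (-0.299), Farsb (-0.282), Hars (-0.314), Hars2 (-0.141) and Tars2 (-0.310), normexp turned Aars2 (0.011), Ears2 (0.039), Mars2 (0.021) and Rars2 (0.015), and quantile scaling turned Eprs (0.016), Farsa (0.025), Qars (0.065) and Iars2 (0.012). The slide block turned Qars (0.022) and Tars2 (-0.018). The sign within slide 1 was turned in Farsa (0.026), Farsb (-0.0072), Gars (0.040), Qars (0.065), Hars2 (-0.372) and Mars2 (0.084), and within slide 2 in Hars (-0.031), Nars2 (0.058) and Tars2 (-0.080). With 1 array left out, changes ran from -0.207 to 0.024 in Aars2, -0.139 to 0.046 in Ears2, -0.128 to 0.047 in Eprs, -0.079 to 0.019 in Farsa, -0.043 to 0.109 in Farsb, -0.019 to 0.043 in Hars, -0.047 to 0.419 in Hars2, -0.108 to 0.075 in Iars2, -0.054 to 0.045 in Mars2, -0.048 to 0.030 in Qars and -0.029 to 0.079 in Tars2.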
